A study of Homo sapiens with 12 samples.

Results

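The 38 genes described here encode the transcription factors of the NF-kB pathway, their inhibitors, the proteins that carry the signal from receptors, and inflammatory cytokines, chemokines and other products of NF-kB target genes. They were chosen by gene symbol from a table of 60668 genes, by a rule that sets no threshold on measured values but was written with earlier results of these data known, and all 38 were found. By role they comprised 5 NF-kB subunits, 6 inhibitors and feedback genes, 5 adapters, ligases and kinases, 4 other target genes, 8 chemokines and 10 cytokines.

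The study asked how loss of a candidate regulator changes gene expression in cancer cell lines and sequenced RNA from 12 libraries, 3 in each of 4 groups. PANC-1 cells, a pancreatic adenocarcinoma line, carried a short hairpin RNA against FOSL1 (shFOSL1) or a scramble hairpin. Cells labelled H1299, a lung adenocarcinoma line per the labels, carried a hairpin against HDAC2 (shHDAC2) or a scramble hairpin. FOSL1 is a subunit of the AP-1 transcription factor and HDAC2 is a histone deacetylase. The sample names point to a single hairpin per target, and all 4 groups grew in the same medium. The FOSL1 hairpins were delivered by lentivirus with puromycin selection, and the sources used here do not describe the delivery of the one against HDAC2. The labels call the replicates biological without saying whether they were separate infections, so the p-values measure the spread between these libraries.

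NF-kB dimers of RELA, RELB or REL with the products of NFKB1 or NFKB2 are held in the cytoplasm by IkB proteins until kinases downstream of cytokine and innate immune receptors mark the IkB proteins for degradation. The freed dimers bind kappaB sites and switch on chemokine, cytokine and adhesion genes, together with their own inhibitors, above all NFKBIA, TNFAIP3 and NFKBIE, which end the response. Many carcinoma cells keep a part of this programme on without an outside stimulus. AP-1, the factor to which FOSL1 belongs, also controls some of the same genes, CXCL8 among them. All values are levels of RNA and do not measure the activity or location of the NF-kB proteins.

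The promoters of 5 members are shown first because each holds a kappaB match and because the chemokine genes, alike in sequence, differ in level below: the closely related chemokine genes CXCL1, CXCL2 and CXCL3, their neighbour CXCL5, and the inhibitor gene NFKBIA. Each line holds the 120 bases before the RefSeq transcript start (GRCh38.p14, 5′ to 3′ on the gene's strand), and capitals mark the match to the kappaB consensus, 2 overlapping matches in the chemokine genes and 1 in NFKBIA. The windows lie at chr4:73869273-73869392 (+) for CXCL1, chr4:74099196-74099315 (-) for CXCL2, chr4:74038690-74038809 (-) for CXCL3, chr4:73998678-73998797 (-) for CXCL5 and chr14:35404750-35404869 (-) for NFKBIA.
CXCL1: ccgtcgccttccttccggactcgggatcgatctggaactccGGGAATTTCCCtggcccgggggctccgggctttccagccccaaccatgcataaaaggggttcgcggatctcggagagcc
CXCL2: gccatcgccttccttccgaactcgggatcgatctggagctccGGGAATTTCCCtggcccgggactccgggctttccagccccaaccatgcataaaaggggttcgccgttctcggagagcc
CXCL3: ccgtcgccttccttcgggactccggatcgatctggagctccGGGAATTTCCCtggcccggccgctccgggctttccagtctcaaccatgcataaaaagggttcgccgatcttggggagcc
CXCL5: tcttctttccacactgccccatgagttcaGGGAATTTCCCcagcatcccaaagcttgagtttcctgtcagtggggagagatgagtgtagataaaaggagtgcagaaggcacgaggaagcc
NFKBIA: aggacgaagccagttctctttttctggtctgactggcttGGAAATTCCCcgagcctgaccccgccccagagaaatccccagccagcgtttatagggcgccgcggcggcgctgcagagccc

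The same letters, GGGAATTTCCC, stood at nearly the same distance from the start in CXCL1, CXCL2 and CXCL3, with the first base 79, 78 and 79 bases before it. Promoter sequences were at hand for 31 of the 38 members, and 16 of the 31 (51.6%) held a kappaB match on either strand within 250 bases before a start, against 6.28% of 27305 genes. These were BIRC3, CCL20, CXCL1, CXCL2, CXCL3, CXCL5, IL32, IL6, NFKB1, NFKB2, NFKBIA, NFKBIB, PTX3, REL, TNFAIP3 and TNIP1. The AP-1 letters TGANTCA were found in 4 of the 31 (12.9%), namely CXCL8, IL11, IL1A and NFKBIB, against 8.06% of all genes, and in NFKBIB the AP-1 and kappaB matches did not overlap. The members were chosen as NF-kB factors and target genes, so their high kappaB share adds no separate support for that role. A match is a description of the letters and shows no binding in these cells.

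The targeted genes checked the labels. FOSL1 was at 178, 167 and 166 CPM (read counts divided by library totals scaled with the TMM method over all 12 libraries) in shFOSL1 cells and 219, 216 and 242 CPM in PANC-1 scramble cells (log2 fold change -0.43, SE 0.062, adjusted p = 2.9e-06, edgeR quasi-likelihood test with Benjamini-Hochberg adjustment, which gives every p below). HDAC2 was at 77.2, 68.4 and 78.3 CPM in shHDAC2 cells and 171, 177 and 187 CPM in H1299 scramble cells (log2 fold change -1.26, SE 0.065, adjusted p = 5.4e-15). Both targets were lower in every knockdown library, FOSL1 by a modest amount. The libraries held 16065723 to 19173421 counts. Replicate 1 of the scramble group stood apart from the other 2 in each line, and the mitochondrially encoded share of counts was 12.9% ± 0.395 in shFOSL1 cells and 7.16% ± 0.154 in PANC-1 scramble cells (SD, n = 3 each). The part of either in the results was not tested beyond leaving out each library and the mitochondrial genes.

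Marker genes were examined for other cell types and for the lines. The 8 immune markers summed to between 2.59 and 4.34 CPM in shFOSL1 cells, 4.99 and 5.68 CPM in PANC-1 scramble cells, 9.40 and 9.48 CPM in shHDAC2 cells and 12 and 13.0 CPM in H1299 scramble cells. The leukocyte marker PTPRC, the T cell marker CD3E and the myeloid marker LYZ did not exceed 0.261 CPM in any library. ITGAM, a myeloid integrin gene, made up most of the sum in H1299, at 8.05, 8.01 and 7.56 CPM in shHDAC2 cells and 10.9, 10.5 and 11.3 CPM in scramble cells (log2 fold change -0.47, SE 0.12, adjusted p = 0.0048). CD14, a monocyte marker, made up the largest part in PANC-1, at 2.46, 2.11 and 2.09 CPM in shFOSL1 cells and 3.65, 2.82 and 3.60 CPM in scramble cells (log2 fold change -0.62, SE 0.22, adjusted p = 0.02). The part of these markers in the results was not tested. CDKN2A, which is deleted in PANC-1, had 0 counts in all 6 PANC-1 libraries. The epithelial genes CDH1, EPCAM and KRT19 were below 1 CPM in every library labelled H1299, while KRT8 was at 303, 270.1 and 267 CPM in its scramble libraries. The name H1299 is used below as the labels give it.

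After FOSL1 knockdown in PANC-1 6 of the 8 chemokine genes and several other targets rose while the gene for the main inhibitor of NF-kB fell. TNFAIP2, ICAM1, CSF1 and CCL5 averaged 1.89 to 1.98 times their scramble level, and NFKBIA fell by 0.87 on the log2 scale. Of the 38 members, 33 passed the filter on low counts, 15 rose (45.5%), 5 fell (15.2%) and 13 did not pass the test at an adjusted p of 0.05. Over all 16345 tested genes, 23.8% rose and 27.1% fell. Beyond an absolute log2 fold change of 0.5, 8 members rose and 3 fell, against 10.6% and 15.8% of all tested genes. The median log2 fold change was 0.19 over the 33 members and -0.02 over all tested genes. All 3 shFOSL1 libraries lay above all 3 scramble libraries in 15 members and below them in 5, against 29.2% and 28.3% of all tested genes.

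**Figure D1:**
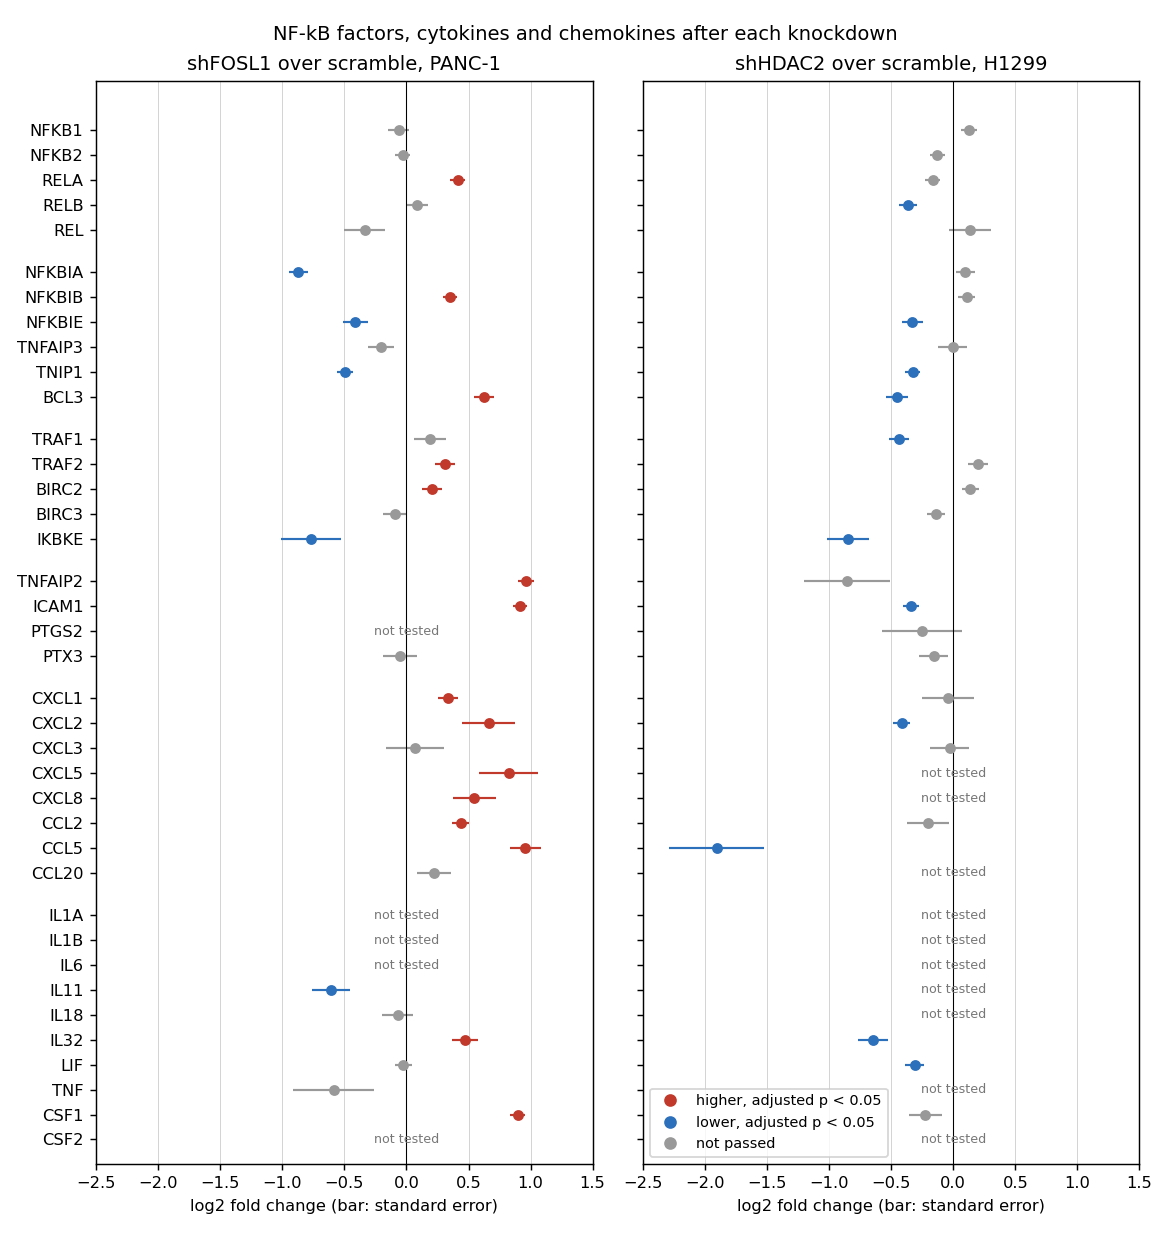
Log2 fold changes (horizontal axis) of the 38 members, by role from top to bottom, for shFOSL1 over scramble in PANC-1 (left) and shHDAC2 over scramble in H1299 (right), with bars for the standard error. In PANC-1 15 members were higher and 5 lower at an adjusted p under 0.05 and in H1299 11 were lower and 17 did not pass, with CCL5 at -1.90.

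Among the subunits, RELA, the main activating subunit, was at 232, 223 and 232 CPM in shFOSL1 cells and 175, 159 and 173 CPM in scramble cells. The groups did not overlap and RELA rose (log2 fold change 0.41, SE 0.060, adjusted p = 3.6e-06). NFKB1, which encodes p105 and p50, was at 31.9 CPM against 32.7 CPM on average, NFKB2, which encodes p100 and p52, at 189 against 190.4 CPM, and RELB at 35.3 against 32.8 CPM. None of these 3 passed the test, with adjusted p from 0.46 to 0.69. REL did not pass either (log2 fold change -0.34, SE 0.16, adjusted p = 0.091), and 33.3% of its exon bases lie in another annotated gene on the same strand.

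The inhibitors split. NFKBIA, which encodes IkB-alpha, was at 64.7, 65.4 and 62.3 CPM in shFOSL1 cells and 118, 125 and 103 CPM in scramble cells, and its groups were far apart (log2 fold change -0.87, SE 0.074, adjusted p = 7.2e-10). TNIP1, whose product binds the A20 protein and restrains NF-kB signalling, was at 90.5, 103 and 94.5 CPM in shFOSL1 cells and 138, 129 and 133 CPM in scramble cells and fell (log2 fold change -0.50, SE 0.066, adjusted p = 1.1e-06). NFKBIE, which encodes IkB-epsilon, fell as well, at 19.8, 20.3 and 17.7 CPM in shFOSL1 cells and 26.2, 25.8 and 23.5 CPM in scramble cells (log2 fold change -0.41, SE 0.10, adjusted p = 0.0013). TNFAIP3, which encodes A20, averaged 17.2 CPM in shFOSL1 cells and 19.6 CPM in scramble cells and did not pass (log2 fold change -0.21, SE 0.11, adjusted p = 0.1).

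The other 2 genes listed in this role moved up. BCL3, an IkB-like nuclear protein that joins p50 and p52 dimers, was at 60.6, 56.9 and 62.9 CPM in shFOSL1 cells and 41.5, 38.1 and 35.8 CPM in scramble cells (log2 fold change 0.62, SE 0.080, adjusted p = 5.8e-07). NFKBIB, which encodes IkB-beta and had the highest level per kilobase of exon of all members in scramble cells, was at 326, 303 and 319 CPM in shFOSL1 cells and 254, 236 and 243 CPM in scramble cells (log2 fold change 0.35, SE 0.057, adjusted p = 1.9e-05). Neither gene's groups overlapped.

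In the signalling group IKBKE, a kinase of the IKK family, was low in all libraries, at 1.62, 2.29 and 2.03 CPM in shFOSL1 cells and 4.08, 3.46 and 2.45 CPM in scramble cells. It fell (log2 fold change -0.77, SE 0.24, adjusted p = 0.01), a call lost without shFOSL1 replicate 1 (adjusted p = 0.056) or scramble replicate 1 (adjusted p = 0.072). TRAF2, an adapter at TNF receptors, rose, at 58.2, 52.1 and 54.6 CPM in shFOSL1 cells and 45.5, 45.2 and 39.8 CPM in scramble cells (log2 fold change 0.31, SE 0.080, adjusted p = 0.002). BIRC2, a ubiquitin ligase that TRAF2 brings to the receptor, was at 127, 139 and 124 CPM in shFOSL1 cells and 92.1, 116 and 124 CPM in scramble cells (log2 fold change 0.21, SE 0.083, adjusted p = 0.039). Its shFOSL1 libraries lay only just above the scramble ones, and the call was lost without scramble replicate 1 (log2 fold change 0.12, adjusted p = 0.054) and without shFOSL1 replicate 1 or 2 (adjusted p = 0.055 and 0.19). BIRC3, which neighbours BIRC2 on chromosome 11, and TRAF1 did not pass with all libraries. BIRC3 was at 182, 199 and 182 CPM in shFOSL1 cells and 152, 209.7 and 229 CPM in scramble cells, where replicate 1 was the low one. Without that scramble library BIRC3 (-0.22, adjusted p = 0.00014), REL (-0.44, adjusted p = 0.022), TNFAIP3 (-0.24, adjusted p = 0.04) and TRAF1 (0.34, adjusted p = 0.024) passed.

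**Figure D2:**
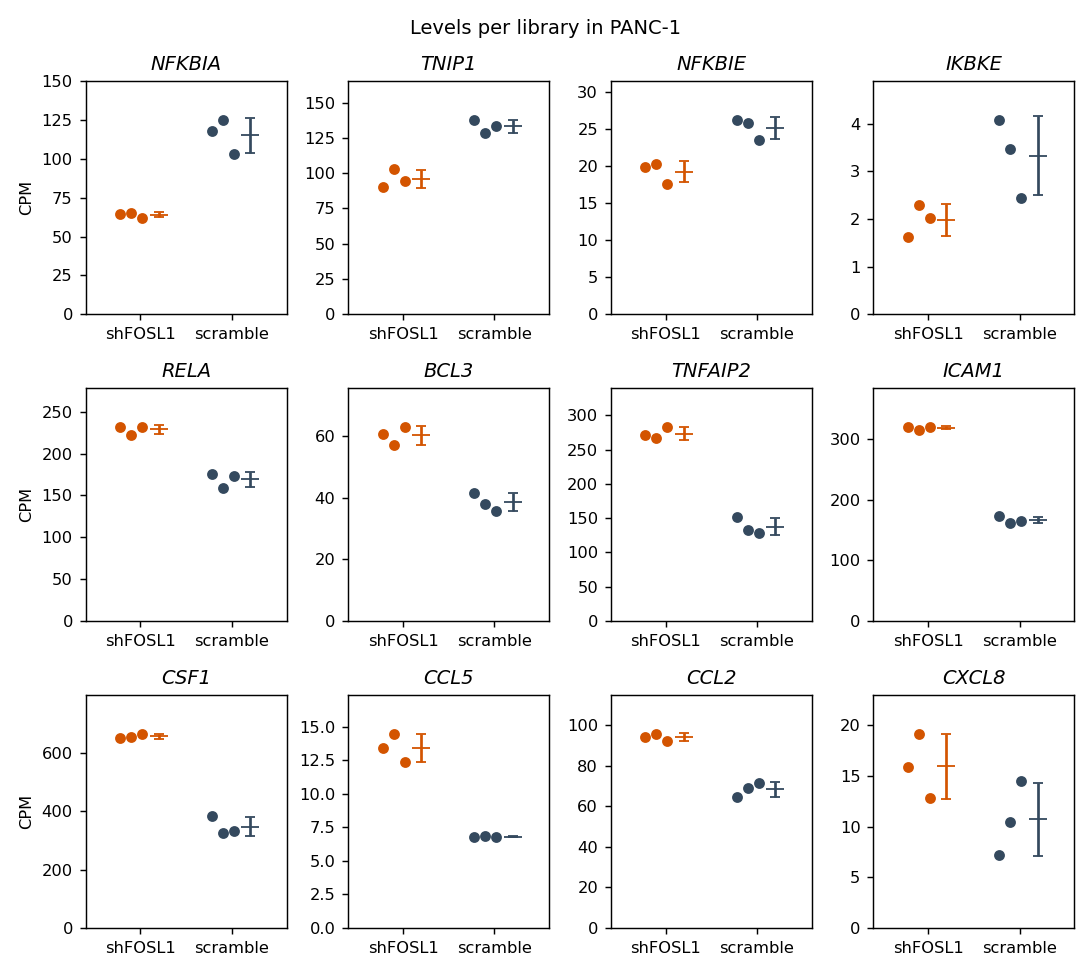
Levels in CPM (vertical axes, from 0) of 12 members in each of the 3 shFOSL1 libraries (left, orange) and the 3 PANC-1 scramble libraries (right, dark), with the mean and SD beside the points. The groups are apart for every gene drawn except CXCL8, whose shFOSL1 replicate 3 lies at 12.8 CPM, below scramble replicate 3 at 14.5 CPM.

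Of the other target genes, 2 rose. TNFAIP2, a TNF-induced gene, was at 270.4, 266 and 283 CPM in shFOSL1 cells and 152, 132 and 129 CPM in scramble cells (log2 fold change 0.96, SE 0.065, adjusted p = 1.2e-11). ICAM1, the adhesion molecule that leukocyte integrins bind, was at 320.1, 315 and 320.1 CPM in shFOSL1 cells and 173, 162 and 165 CPM in scramble cells (log2 fold change 0.91, SE 0.057, adjusted p = 2.8e-12). For ICAM1, 25.4% of the exon bases overlap antisense genes, and the strand setting of the counting is not given in the sources used here. PTX3, a soluble pattern recognition protein, averaged 7.90 CPM in shFOSL1 cells and 8.05 CPM in scramble cells and did not pass (adjusted p = 0.78). PTGS2, which encodes cyclooxygenase-2, had 6 to 22 counts per library and was not tested.

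Of the 8 chemokine genes, 6 rose after shFOSL1 and 2 did not pass, with a median log2 fold change of 0.49. CCL5, a chemokine that attracts T cells, was at 13.4, 14.5 and 12.4 CPM in shFOSL1 cells and 6.76, 6.87 and 6.78 CPM in scramble cells (log2 fold change 0.96, SE 0.13, adjusted p = 9.2e-07). CXCL5 was low, at 3.54, 2.99 and 3.50 CPM in shFOSL1 cells and 1.56, 2.45 and 1.56 CPM in scramble cells, and rose (log2 fold change 0.82, SE 0.24, adjusted p = 0.0055). An antisense gene overlaps 17.3% of its exon bases. CCL2, the monocyte attractant that binds CCR2, was at 94.3, 96.0 and 92.3 CPM in shFOSL1 cells and 64.4, 69.1 and 71.7 CPM in scramble cells (log2 fold change 0.44, SE 0.068, adjusted p = 9e-06). None of these 3 had overlapping groups.

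CXCL1, CXCL2, CXCL3 and CXCL8 lie with CXCL5 within 359 kb of chromosome 4 and encode ligands of the neutrophil receptor CXCR2. CXCL2 was at 3.24, 3.76 and 4.68 CPM in shFOSL1 cells and 2.15, 2.56 and 2.55 CPM in scramble cells (log2 fold change 0.66, SE 0.21, adjusted p = 0.011), and the call was lost without shFOSL1 replicate 3 (adjusted p = 0.087). CXCL1 was at 47.1, 47.1 and 47.4 CPM in shFOSL1 cells and 36.6, 34.8 and 39.2 CPM in scramble cells (log2 fold change 0.33, SE 0.080, adjusted p = 0.0012). CXCL8, which encodes interleukin-8, was at 15.9, 19.2 and 12.8 CPM in shFOSL1 cells and 7.24, 10.4 and 14.5 CPM in scramble cells and its groups overlapped. CXCL8 passed in edgeR (log2 fold change 0.55, SE 0.17, adjusted p = 0.01) and not in DESeq2 (adjusted p = 0.13) or without shFOSL1 replicate 2 (adjusted p = 0.096). CXCL3 averaged 2.45 CPM in shFOSL1 cells and 2.29 CPM in scramble cells and did not pass (log2 fold change 0.069, SE 0.23, adjusted p = 0.82), and CCL20, the ligand of CCR6, did not pass either (log2 fold change 0.22, SE 0.14, adjusted p = 0.18). Whether CXCL1, CXCL2 and CXCL3 differ from each other in response was not tested in either line. The coding sequences of CXCL1, CXCL2 and CXCL3 are 90.7% to 94.4% identical, but the longest run of bases that a pair of their transcripts shares is 97, below the read length of 150. Reads inside shared stretches can be dropped or assigned to either gene, so the split among these 3 carries that uncertainty.

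Among the cytokines CSF1, the growth factor of macrophages, was at 650.3, 652 and 666 CPM in shFOSL1 cells and 384, 326 and 331 CPM in scramble cells (log2 fold change 0.90, SE 0.061, adjusted p = 1.3e-11). IL32, a cytokine that rodents lack, was at 21.9, 23.4 and 20.6 CPM in shFOSL1 cells and 16.3, 14.3 and 16.1 CPM in scramble cells (log2 fold change 0.47, SE 0.10, adjusted p = 0.00054). Both rose with no overlap. IL11, a ligand that signals through gp130, fell, at 4.73, 4.70 and 4.51 CPM in shFOSL1 cells and 6.98, 6.76 and 7.19 CPM in scramble cells (log2 fold change -0.61, SE 0.15, adjusted p = 0.0016). LIF, another gp130 ligand, averaged 122 CPM in shFOSL1 cells and 122 CPM in scramble cells and did not pass (adjusted p = 0.77), nor did IL18 (adjusted p = 0.65). TNF was at 0.839, 1.88 and 0.902 CPM in shFOSL1 cells and 2.04, 1.97 and 1.36 CPM in scramble cells and did not pass (log2 fold change -0.59, SE 0.33, adjusted p = 0.14), although it passed without shFOSL1 replicate 2 (-1.05, adjusted p = 0.027). The classical inflammatory cytokines IL1A, IL1B, IL6 and CSF2 had 0 to 4 counts per PANC-1 library, too few to test.

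The genes that carry the signal were listed apart from the members. Of 25 upstream kinases and adapters, 10 rose (40.0%) and 3 fell (12%) after shFOSL1, against 23.8% and 27.1% of all tested genes. The rises were led by RIPK1, the kinase at TNF receptor 1 (log2 fold change 0.91, SE 0.10, adjusted p = 3.9e-08), and MYD88, the adapter of Toll-like and interleukin-1 receptors (log2 fold change 0.69, SE 0.11, adjusted p = 2e-05). MAP3K7, which encodes TAK1 (log2 fold change -0.45, SE 0.091, adjusted p = 0.00021), and CHUK, which encodes IKK-alpha (log2 fold change -0.32, SE 0.088, adjusted p = 0.0042), fell. Of 26 receptor genes 12 were tested, and 2 rose (16.7%) and 7 fell (58.3%), against the same shares of all tested genes. OSMR (log2 fold change 0.43, SE 0.077, adjusted p = 4.5e-05) and TNFRSF1A (log2 fold change 0.32, SE 0.060, adjusted p = 0.00011) rose, while CD40 was at 13.8, 11.4 and 10.7 CPM in shFOSL1 cells and 23.3, 22.7 and 24.6 CPM in scramble cells (log2 fold change -1, SE 0.11, adjusted p = 7.4e-08) and IL6R fell (log2 fold change -0.77, SE 0.12, adjusted p = 1.4e-05). The median of the 12 receptors was -0.41. Of 33 other NF-kB target genes 20 were tested, 6 rose, led at 5 CPM or more by NINJ1 (log2 fold change 0.61, SE 0.11, adjusted p = 6.7e-05) and IER2 (log2 fold change 0.48, SE 0.085, adjusted p = 4.6e-05), and 5 fell, led at 5 CPM or more by GADD45B (log2 fold change -1.08, SE 0.078, adjusted p = 4.3e-11) and PLAUR (log2 fold change -0.94, SE 0.14, adjusted p = 4.6e-06), with a median of -0.09. In this wider list 30.0% rose and 25.0% fell, shares near those of all genes.

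After HDAC2 knockdown in H1299 the members that passed the test all fell: 11 of the 28 tested were lower (39.3%), 0 were higher and 17 did not pass, with 12.1% of all 16465 tested genes lower and 10.3% higher. The largest fall was in CCL5, followed by IKBKE and IL32, and the rest were falls of 0.31 to 0.45 on the log2 scale. CCL5 passed the filter on low counts only through the scramble group, where it is high, so it could hardly be called higher. With edgeR 1 member, TRAF2, was higher and 14 lower at an unadjusted p under 0.05. Shares of all tested genes at that unadjusted threshold were not computed, so the 1 and the 14 stand without a background. At an adjusted p under 0.05 DESeq2 and limma-voom also called 0 members higher. Without scramble replicate 1 NFKBIB (0.17, adjusted p = 0.023) and TRAF2 (0.30, adjusted p = 0.002) were called higher. By more than 0.5 on the log2 scale 3 members fell and 0 rose, against 5.61% and 1.45% of all tested genes. The median log2 fold change was -0.21 over the 28 members and -0.0049 over all tested genes. All shHDAC2 libraries lay below all scramble libraries in 13 members and above them in 3, against 18.7% and 18.4% of all tested genes.

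CCL5 was at 0.656, 0.234 and 0.473 CPM in shHDAC2 cells and 2.02, 1.30 and 1.82 CPM in scramble cells (log2 fold change -1.90, SE 0.38, adjusted p = 0.00043). These values rest on 4 to 11 counts per shHDAC2 library and 23 to 37 per scramble library. CXCL2, the most abundant member per kilobase in this line, was at 91.0, 108 and 109 CPM in shHDAC2 cells and 149, 121 and 139.8 CPM in scramble cells (log2 fold change -0.42, SE 0.072, adjusted p = 6.4e-05). Its relatives CXCL1 (adjusted p = 0.91) and CXCL3 (adjusted p = 0.92) did not pass, at 3.03 and 5.48 CPM in shHDAC2 cells against 3.10 and 5.56 CPM in scramble cells. CCL2 did not pass (adjusted p = 0.42), and CXCL5, CXCL8 and CCL20, with 0 to 8 counts per library, were not tested. CXCL8 had 17 counts in the 3 shHDAC2 libraries together and 4 in the 3 scramble libraries.

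IL32 was at 8.47, 10.2 and 9.19 CPM in shHDAC2 cells and 16.8, 12.9 and 13.9 CPM in scramble cells, and fell (log2 fold change -0.65, SE 0.12, adjusted p = 0.00015). LIF was at 39.7, 47.2 and 42.8 CPM in shHDAC2 cells and 56.6, 53.6 and 50.5 CPM in scramble cells (log2 fold change -0.31, SE 0.076, adjusted p = 0.0029). Both were lower in every knockdown library. CSF1 did not pass (log2 fold change -0.23, SE 0.13, adjusted p = 0.24), and IL1A, IL1B, IL6, IL11, IL18, TNF and CSF2 were not tested. IL6 and CXCL5 had 0 counts in all 6 H1299 libraries. TNF and CSF2 had 4 and 3 counts, each in shHDAC2 replicate 2 alone, and 0 in the scramble libraries.

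**Figure D3:**
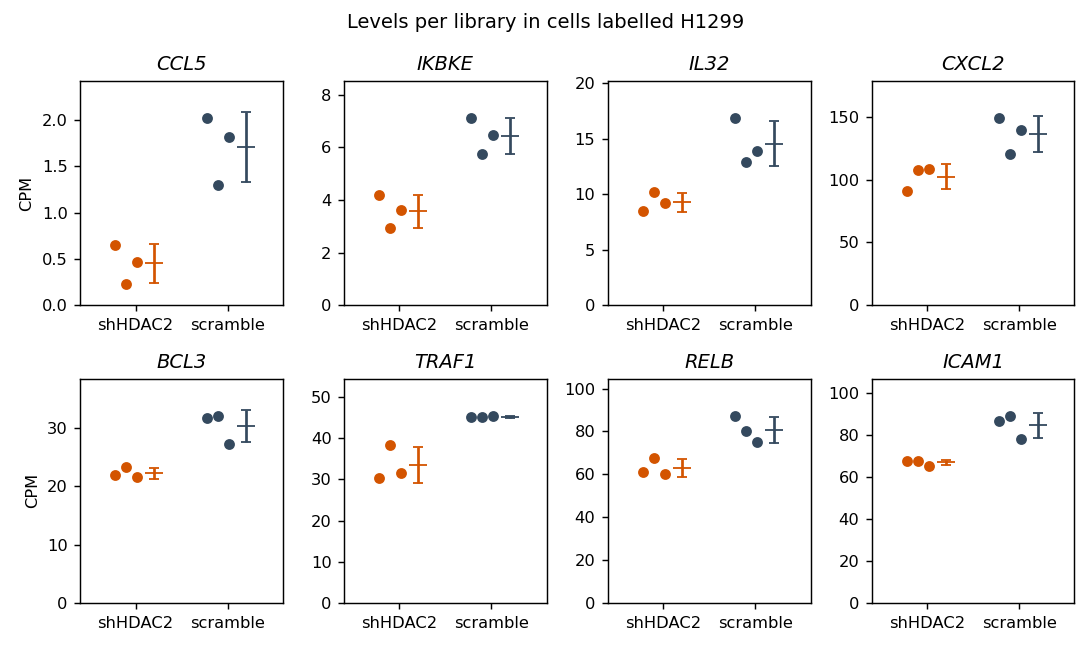
Levels in CPM (vertical axes, from 0) of 8 members in each of the 3 shHDAC2 libraries (left, orange) and the 3 H1299 scramble libraries (right, dark), with the mean and SD beside the points. The shHDAC2 libraries lie below the scramble libraries for all 8 genes, from CCL5 at 0.454 against 1.71 CPM to CXCL2 at 102 against 136 CPM on average.

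Among the factors, inhibitors and feedback genes, RELB, the subunit that pairs with p52, was at 61.1, 67.5 and 60.1 CPM in shHDAC2 cells and 87.1, 80.0 and 75.1 CPM in scramble cells (log2 fold change -0.36, SE 0.070, adjusted p = 0.00027). BCL3 was at 21.9, 23.2 and 21.5 CPM in shHDAC2 cells and 31.7, 32.0 and 27.2 CPM in scramble cells (log2 fold change -0.45, SE 0.088, adjusted p = 0.00029). TNIP1 was at 115, 112 and 113 CPM in shHDAC2 cells and 144, 146 and 135 CPM in scramble cells (log2 fold change -0.33, SE 0.060, adjusted p = 0.00016). All 3 fell, as did NFKBIE, at 28.3, 31.8 and 29.1 CPM in shHDAC2 cells and 40.7, 34.1 and 37.0 CPM in scramble cells (log2 fold change -0.33, SE 0.082, adjusted p = 0.0038). NFKBIA, the member with the largest fall in PANC-1, averaged 45.3 CPM in shHDAC2 cells and 42.3 CPM in scramble cells and did not pass (log2 fold change 0.10, SE 0.076, adjusted p = 0.38). RELA missed the threshold (log2 fold change -0.17, SE 0.062, adjusted p = 0.051) and passed in limma-voom (adjusted p = 0.049), with upper quartile scaling (0.029) and with at least 10 counts in every library (0.042). NFKB1, NFKB2, REL, NFKBIB and TNFAIP3 did not pass, with adjusted p from 0.13 to 0.99.

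IKBKE was at 4.18, 2.92 and 3.62 CPM in shHDAC2 cells and 7.10, 5.74 and 6.47 CPM in scramble cells (log2 fold change -0.85, SE 0.17, adjusted p = 4e-04). TRAF1, an adapter that is itself an NF-kB target, was at 30.4, 38.4 and 31.7 CPM in shHDAC2 cells and 45.1, 45.1 and 45.4 CPM in scramble cells (log2 fold change -0.44, SE 0.082, adjusted p = 0.00019). ICAM1 was at 67.7, 67.4 and 65.3 CPM in shHDAC2 cells and 86.6, 88.9 and 77.8 CPM in scramble cells (log2 fold change -0.34, SE 0.068, adjusted p = 0.00037). Each of the 3 fell with no overlap. TNFAIP2, abundant in PANC-1, was at 0.716, 0.585 and 1.52 CPM in shHDAC2 cells and 2.40, 1.35 and 1.46 CPM in scramble cells. It did not pass (log2 fold change -0.86, SE 0.35, adjusted p = 0.072), and passed without shHDAC2 replicate 3 (-1.41, adjusted p = 0.019), with at least 10 counts in every library (adjusted p = 0.048) and with all 12 libraries in a single fit (adjusted p = 0.035). BIRC2, BIRC3, TRAF2, PTGS2 and PTX3 did not pass, and without scramble replicate 1 BIRC3 fell (-0.24, adjusted p = 0.00076).

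Of the 25 upstream kinases and adapters, 2 rose and 2 fell in H1299 (8.0% each), against 10.3% and 12.1% of all tested genes. MAP3K14, which encodes the NF-kB-inducing kinase (log2 fold change 0.38, SE 0.064, adjusted p = 5.3e-05), and CHUK (log2 fold change 0.34, SE 0.10, adjusted p = 0.012) rose, while TRADD (log2 fold change -0.32, SE 0.11, adjusted p = 0.024) and RBCK1 (log2 fold change -0.21, SE 0.072, adjusted p = 0.036) fell. Of the 15 receptors tested 4 fell (26.7%) and 11 did not pass. TNFRSF1B (log2 fold change -1.38, SE 0.21, adjusted p = 1.1e-05) and IL6R (log2 fold change -0.83, SE 0.21, adjusted p = 0.0043) fell at levels below 5 CPM. Among those at 5 CPM or more IL6ST, which encodes gp130, fell, at 86.4, 88.3 and 94.3 CPM in shHDAC2 cells and 128, 154 and 165 CPM in scramble cells (log2 fold change -0.74, SE 0.073, adjusted p = 5.3e-09), as did TNFRSF1A (log2 fold change -0.21, SE 0.057, adjusted p = 0.0067). Of the 17 other NF-kB targets tested 6 fell (35.3%) and 11 did not pass, led at 5 CPM or more by MMP9 (log2 fold change -0.83, SE 0.16, adjusted p = 0.00018) and G0S2 (log2 fold change -0.35, SE 0.078, adjusted p = 0.0012), with a median of -0.17.

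The 27 members tested in both lines were set side by side, each knockdown with its own scramble cells. In 5 of them, BCL3, CCL5, CXCL2, ICAM1 and IL32, the level rose after shFOSL1 and fell after shHDAC2. The difference between the responses passed for all 5 in a test over the 12 libraries, from 1.09 for BCL3 (SE 0.12, adjusted p = 1.5e-08) to 2.89 for CCL5 (SE 0.34, adjusted p = 7.6e-08). These 5 were picked by opposite calls in the same libraries, so that outcome was nearly fixed beforehand and adds no separate support. IKBKE, NFKBIE and TNIP1 fell in both lines, with log2 fold changes of -0.77, -0.41 and -0.50 after shFOSL1 and -0.85, -0.33 and -0.33 after shHDAC2. Their differences did not pass (adjusted p from 0.2 to 0.84). The shares of all tested genes with opposite calls, or with falls in both lines, were not computed, so these counts stand without a background. Of the 34 members that passed the filter over the 12 libraries, the response was higher after shFOSL1 than after shHDAC2 in 13 (38.2%). It was lower in 1, NFKBIA (-0.95, SE 0.11, adjusted p = 3e-08), against 18.3% and 15.5% of all 18505 tested genes. PTGS2 in PANC-1 and CXCL5, CXCL8, CCL20, IL11, IL18 and TNF in H1299 had too few counts to test within that line. They entered through the other line alone, and their differences, none of them called, could hardly be assessed. Beside the 5 above, the 13 were CCL2, CSF1, LIF, NFKBIB, RELA, RELB, TNFAIP2 and TRAF1. The call of NFKBIB was lost on leaving out any of 8 single libraries (adjusted p from 0.066 to 0.12) and that of LIF any of 6 (adjusted p from 0.057 to 0.14), while REL was also lower without shHDAC2 replicate 1. The line and the targeted gene change together here, so their shares in these differences cannot be told apart.

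The scramble cells of the lines differed widely, with TNFAIP2 among the members higher in PANC-1 (6.30 on the log2 scale) and CXCL2 among those lower (-5.82). Between PANC-1 scramble and H1299 scramble cells 34 members were tested, 20 were higher (58.8%) and 10 lower (29.4%) in PANC-1, against 37.4% and 39.5% of all 17619 tested genes. CXCL5, CXCL8, CCL20, IL11, IL18 and TNF passed the filter only through PANC-1, where they are high, so they could hardly be called lower. The 20 higher members include them. With at least 10 counts required in every library, 14 members were higher and 9 lower. The shares of all genes under that filter were not computed, so these counts stand without a background. In these bulk libraries, a difference in how many cells express a gene cannot be told apart from a difference in RNA per cell.

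CXCL1 and CXCL2 were inverted between the lines. CXCL1 was at 36.6, 34.8 and 39.2 CPM in PANC-1 scramble and 2.51, 3.27 and 3.54 CPM in H1299 scramble cells (log2 fold change 3.56, SE 0.14, adjusted p = 2.9e-15). CXCL2 was at 2.15, 2.56 and 2.55 CPM in PANC-1 scramble and 149, 121 and 139.8 CPM in H1299 scramble cells (log2 fold change -5.82, SE 0.12, adjusted p = 2.8e-19). Per kilobase of exon, CXCL1 exceeded CXCL2 in PANC-1 scramble cells (27.1 and 1.73 CPM per kb) and CXCL2 exceeded CXCL1 in H1299 scramble cells (97.6 and 2.28 CPM per kb). CXCL3 was low in both, at 1.03 and 2.51 CPM per kb in PANC-1 and H1299 scramble cells (log2 fold change -1.29, SE 0.20, adjusted p = 5.2e-06). The 3 promoters printed above carry the same kappaB letters, but they are reference sequence and not that of these lines. The cause of the inversion was not tested.

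**Figure D4:**
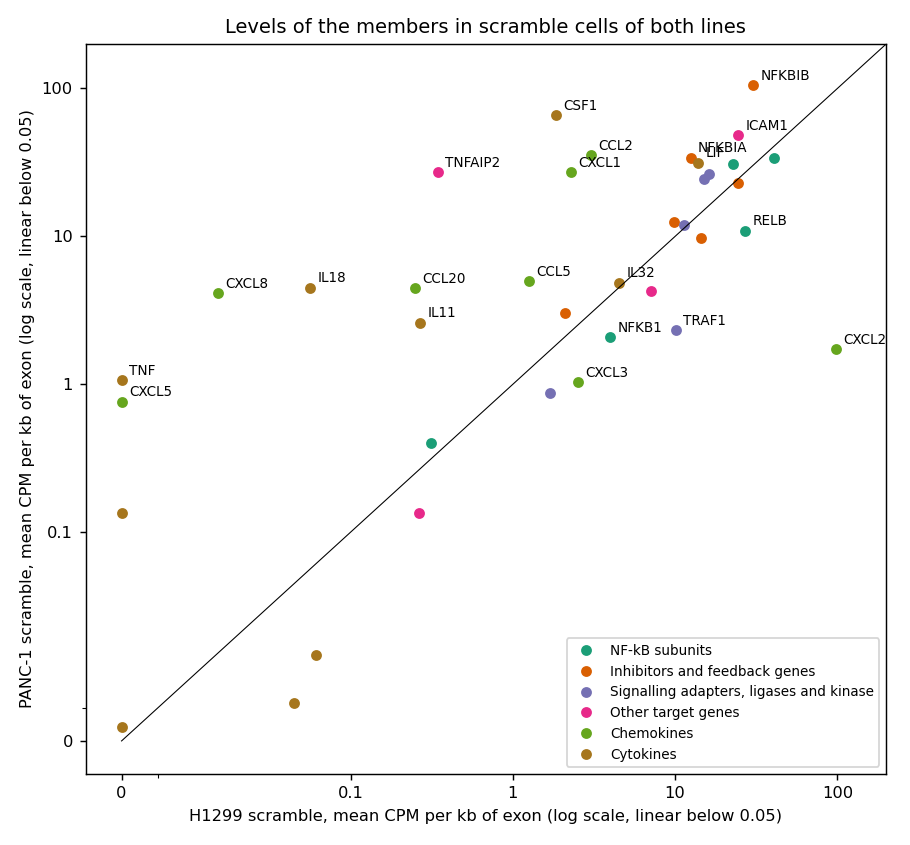
Mean level per kilobase of exon of each member in PANC-1 scramble cells (vertical axis) and H1299 scramble cells (horizontal axis), in CPM per kb on log axes that are linear below 0.05, with colours for the roles and a line of equal level. CXCL2 lies alone at the right, at 1.73 in PANC-1 and 97.6 CPM per kb in H1299 scramble cells, and TNF and CXCL5 stand at 0 in H1299.

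Members far higher in PANC-1 included TNFAIP2 (138 CPM in PANC-1 scramble and 1.74 CPM in H1299 scramble cells, log2 fold change 6.30, SE 0.15, adjusted p = 7.5e-19) and CSF1 (347 and 9.63 CPM, log2 fold change 5.16, SE 0.11, adjusted p = 1.5e-19). CXCL8 averaged 10.7 CPM in PANC-1 scramble cells and had 4 counts over the 3 H1299 scramble libraries. CXCL5 and TNF had 0 counts in H1299 scramble cells and were at least 34.6-fold and 33.3-fold higher in PANC-1 scramble cells, taking 3 counts over the H1299 group as the floor. CCL2 (3.53), CCL20 (4.14), IL11 (3.23), CCL5 (1.97) and LIF (1.18) were also higher in PANC-1 by log2 fold change. IL32 did not differ beyond its spread (adjusted p = 0.52), nor did TNIP1 (adjusted p = 0.24), TRAF2 (adjusted p = 0.55) or REL (adjusted p = 0.081, and 0.014 without PANC-1 scramble replicate 1).

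The factors were less far apart. RELB, at 31.3, 30.7 and 36.5 CPM in PANC-1 scramble and 87.1, 80.0 and 75.1 CPM in H1299 scramble cells (log2 fold change -1.31, SE 0.093, adjusted p = 6.6e-11), TRAF1 (log2 fold change -2.13, SE 0.11, adjusted p = 4.4e-13) and NFKB1 (log2 fold change -0.95, SE 0.084, adjusted p = 2.5e-09) were lower in PANC-1, as were NFKB2, NFKBIE, IKBKE, PTX3 and PTGS2 with log2 fold changes from -0.98 to -0.26. PTGS2 passed the filter only through H1299, where it is higher, so it could hardly be called higher in PANC-1. The call of PTGS2 was lost in DESeq2 (adjusted p = 0.055) and on leaving out any of 4 single libraries (adjusted p from 0.059 to 0.11). NFKBIB (log2 fold change 1.78, SE 0.080, adjusted p = 3.8e-14) and NFKBIA (log2 fold change 1.44, SE 0.092, adjusted p = 1.2e-11), inhibitors in the cytoplasm, were higher in PANC-1, together with ICAM1, BIRC2, BIRC3, TNFAIP3, RELA and BCL3 with log2 fold changes from 0.33 to 0.97. Without H1299 scramble replicate 3 BCL3 was not called (adjusted p = 0.053).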

How the data were processed

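RNA was sequenced from 12 libraries of 2 cell lines, 3 per group, with 150-base paired reads on an Illumina HiSeq X instrument. The authors aligned the reads to GRCh38 with STAR (2.7.2b), and they deposited whole-number gene counts from featureCounts (2.0.1) without normalization. Per the submitters' notes cutadapt and FastQC were used too. The annotation release and the strand setting are not given in the sources used here.

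The members and all gene lists were chosen with earlier results of these data known. Counts were tested in R (4.3.3) with edgeR (4.0.16): filterByExpr by group, TMM scaling, glmQLFit and glmQLFTest, with Benjamini-Hochberg adjustment over all tested genes and a call at an adjusted p under 0.05. Each knockdown was compared with scramble cells of its own line, the scramble groups with each other, and the knockdown effects through an interaction over 12 libraries. The fits were tested on simulated data. Common dispersion gave a biological coefficient of variation of 0.0687 in PANC-1 and 0.0609 in H1299. Levels are CPM over totals scaled across all 12 libraries, so a ratio of these means can differ slightly from a fitted fold change. Intervals and floors in counts cover counting error only.

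Alternatives were DESeq2 (1.42.0), limma-voom (limma 3.58.1), other scalings and filters, a replicate block, a single fit over 12 libraries, removal of mitochondrial genes and of each library. Leaving out replicate 1 of both scramble groups together was added after the data were seen. All 38 members matched GENCODE release 44, which gave positions, exon bases and overlaps. Promoters came from RefSeq (GRCh38.p14). All members were named, and those called after a knockdown with a mean of at least 1 CPM were given per library. Between the scramble groups most were given as means or fold changes. From each other list at most 2 genes per direction were named, with the largest changes among called genes at 5 CPM or more. A few items of these lists are not reported here.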

Additional observations from a re-analysis of the deposited data

How the results depend on the processing

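No member that was called changed direction under any alternative run. Requiring an absolute log2 fold change over 0.5 lowered the members called after shFOSL1 to 8 higher and 3 lower, and those after shHDAC2 to 3 lower, because many of the changes were smaller than that. On leaving out 1 library at a time, 0 to 2 members were higher after shHDAC2 and the difference between the knockdowns was lower in 1 to 2 members. The other counts of calls stayed within 1.5 times. DESeq2 lost CXCL8 in PANC-1, upper quartile scaling and a minimum of 10 counts in every library lost BIRC2, and that minimum removed CCL5 from the H1299 test and PTGS2, CXCL5, CXCL8, CCL20, IL11, IL18 and TNF from that between the scramble groups (23 of 30 calls kept). Replicate numbers did not pair the libraries (correlations of same-numbered deviations 0.017, 0.004 and -0.005 in PANC-1, and -0.019, -0.057 and 0.053 in H1299). With a replicate block the members called were the same: 15 higher and 5 lower after shFOSL1, 0 higher and 11 lower after shHDAC2, 20 higher and 10 lower between the scramble groups, and 13 higher and 1 lower in the difference.

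Members near 0 that were not called changed sign. In H1299 TNFAIP3, at -0.0026 in the reported fit, was 0.0016 in DESeq2, 0.0034 with RLE size factors, 0.0059 for every gene with at least 1 count, 6e-04 with all 12 libraries in a single fit and 2e-04 without mitochondrially encoded genes. Over the omissions of single libraries the log2 fold change ranged from -0.0965 to 0.1151 for TNFAIP3, -0.1744 to 0.0669 for CXCL1 and -0.1158 to 0.0689 for CXCL3 in H1299. In PANC-1 it ranged from -0.0545 to 0.0404 for NFKB2, -0.2194 to 0.0456 for BIRC3, -0.1136 to 0.0013 for PTX3, -0.0132 to 0.1674 for CXCL3, -0.1225 to 0.0223 for IL18 and -0.0417 to 0.0445 for LIF. Between the scramble groups TRAF2 ranged from -2e-04 to 0.1545, and the difference for IKBKE from -0.1166 to 0.2731. The cause was not tested. Counts limit IL1A, IL1B, IL6, CSF2 and, in H1299, CXCL5, CXCL8, CCL20, IL11, IL18 and TNF, whose changes were not detectable at this depth.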

Other observations

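Type I interferon response genes, which share inducers with NF-kB, mostly fell in H1299. Of 21 genes 18 were tested, and after shHDAC2 1 rose (5.56%) and 15 fell (83.3%), against 10.3% and 12.1% of all tested genes. OASL, an interferon-induced relative of the oligoadenylate synthetases, was at 4.41, 4.85 and 4.15 CPM in shHDAC2 cells and 15.5, 14.8 and 18.1 CPM in scramble cells (log2 fold change -1.85, SE 0.13, adjusted p = 4.5e-12, edgeR as above), and IFIT3, an interferon-induced antiviral protein, at 9.78, 7.90 and 10.4 CPM in shHDAC2 cells and 23.1, 31.3 and 26.5 CPM in scramble cells (log2 fold change -1.53, SE 0.12, adjusted p = 2.3e-11). The median log2 fold change was -0.81 over the 18 genes and -0.21 over the members tested. The summed level of the list was 305 to 320.3 CPM in shHDAC2 libraries and 473.9 to 504.6 CPM in scramble libraries. In PANC-1 the list split, with 7 of 18 higher (38.9%) and 5 lower (27.8%) after shFOSL1, against 23.8% and 27.1% of all tested genes. Among genes at 5 CPM or more IFIT2 rose (log2 fold change 1.71, SE 0.16, adjusted p = 6.1e-09), as did IFIT1 (log2 fold change 0.48, SE 0.11, adjusted p = 0.001), while OAS3 (log2 fold change -0.62, SE 0.079, adjusted p = 5.3e-07) fell. Below that level, IFIT3 averaged 4.93 CPM in shFOSL1 cells and 1.34 CPM in PANC-1 scramble cells, and OASL 1.41 and 0.442 CPM.

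The 7 genes of the AP-1 subunits listed were all tested in both lines. After shFOSL1 1 rose (14.3%) and 3 fell (42.9%), against 23.8% and 27.1% of all tested genes: JUND rose (log2 fold change 0.76, SE 0.067, adjusted p = 1.2e-09) and FOSL1 itself, JUNB (log2 fold change -0.80, SE 0.066, adjusted p = 4.7e-10) and FOS (log2 fold change -0.59, SE 0.086, adjusted p = 3.7e-06) fell. After shHDAC2 5 of the 7 rose (71.4%) and 1 fell (14.3%), against 10.3% and 12.1% of all tested genes. The rises were led by FOS (log2 fold change 0.50, SE 0.085, adjusted p = 4.8e-05) and FOSB (log2 fold change 0.47, SE 0.13, adjusted p = 0.0076), and JUNB fell (log2 fold change -0.18, SE 0.068, adjusted p = 0.049). FOSL1 was among the 5, at 565, 617 and 590.2 CPM in shHDAC2 cells and 483, 427 and 427 CPM in H1299 scramble cells. Of the 7 fibroblast and endothelial markers, COL1A1 carried nearly all of the signal in PANC-1, at 80.9, 73.6 and 80.3 CPM in shFOSL1 cells and 278, 249 and 219.8 CPM in scramble cells (log2 fold change -1.69, SE 0.075, adjusted p = 3.4e-15). Of the 6 carcinoma markers, 1 rose (16.7%) and 5 fell (83.3%) after shFOSL1, against 23.8% and 27.1% of all tested genes. After shHDAC2 all 3 tested fell, against 12.1% of all tested genes, and the other 3 were not tested. KRT8 fell in both lines (log2 fold change -0.83, SE 0.070, adjusted p = 7e-10 in PANC-1 and log2 fold change -0.76, SE 0.059, adjusted p = 3e-11 in H1299).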
